A study of Homo sapiens with 20 samples.

Results

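The 77 genes described here encode subunits of the mitochondrial respiratory chain that are carried by nuclear chromosomes, out of 19775 genes represented on the arrays. They were taken by gene symbol from the platform's annotation, by a rule that used no measured change. The family itself was chosen with earlier results of these data known. The rule took NADH dehydrogenase genes (NDUFA, NDUFB, NDUFC, NDUFS and NDUFV) for complex I and SDH genes for complex II. It took UQCR genes and CYC1 for complex III, the COX4 to COX8 genes for complex IV, and ATP5 genes for complex V. This gave 32, 3, 7, 17 and 18 genes in that order of complexes. Each gene was read through 1 probe set that matched no other gene, the one with the highest mean over the 20 arrays. To be tested, a gene had to reach 5.0 (log2) on 2 or more arrays, and 72 of the 77 did, among 13787 genes in all.

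The arrays come from 5 established human lines of T-ALL, an acute leukaemia of T cell precursors: T-ALL1, KOPT-K, CEM, DND41 and HPB-ALL. Cells of each line were exposed for 16 h to the NBD peptide, which copies the region that binds NEMO, the regulatory subunit of the IκB kinase, and blocks canonical NF-κB signalling, or to a control peptide. There are 2 arrays for NBD and 2 for control in every line. The labels give the dose in units that contradict each other, so nothing here rests on it. They also leave unstated whether the 2 arrays of a group come from separate cultures, so the p-values rest on array-to-array spread alone, and that spread may be technical. Each line is a single leukaemia grown in culture, without the stroma or other blood cells of a patient.

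The respiratory chain passes electrons from NADH (complex I) and succinate (complex II) through ubiquinone to complex III, then by cytochrome c to complex IV, which reduces oxygen. Complexes I, III and IV pump protons across the inner mitochondrial membrane, and complex V, the ATP synthase, uses the return flow to make ATP. Most subunits are made from nuclear genes and imported, a few are encoded by mitochondrial DNA, and proliferating T-ALL cells draw on the chain for ATP and for the oxidized cofactors needed to make nucleotides.

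The signal of most subunit genes was high. The mean log2 intensity over the 20 arrays had a median of 12.15 over the 72 tested genes, beside 7.78 over all genes tested, and 67 members were at 10 or above. Probe sets bind with different strength, so such values place a gene above background but do not order genes by abundance. T lineage markers were present, with CD3D at a mean of 13.33, LCK at 10.32 and CD3G at 11.14, while MS4A1 of B cells (3.77), CD14 (4.11) and LYZ (3.32) of myeloid cells and EPCAM of epithelium (3.80) lay below the filter value on average. Other genes of these marker lists did pass the filter: 3 of 4 for B cells, 2 of 5 for myeloid cells, and 3 of 6 for fibroblast and epithelium. CD79A, a B cell marker, reached 11.46 on the highest array. Some arrays differed in RNA quality. The actin probe sets at the 3′ and 5′ ends of the transcript differed by 1.07 and 0.99 on the T-ALL1 NBD arrays, against 3.16 and 2.05 on the T-ALL1 control arrays, where a larger difference marks more degraded or less completely copied RNA. On all other arrays this difference was 0.73 to 1.81. The average count, the T-ALL1 median and the counts of arrays in T-ALL1 are therefore also given without one or the other T-ALL1 control.

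On average over the 5 lines, 8 subunit genes fell with NBD and none rose. They were NDUFA3, NDUFA13, NDUFA11, NDUFB7, NDUFB8 and NDUFA7 of complex I, UQCRQ of complex III and ATP5MC1 of complex V. The falls were small, between 0.15 and 0.24 on the log2 scale, and NDUFA3, the largest, kept a fold of 0.845. These 8 are 11.1% of the 72 members, beside 6.14% of all genes tested that were called lower and 2.24% called higher (limma, Benjamini-Hochberg adjusted p under 0.05). Among the 2711 genes with a mean log2 level of at least 10, a comparison chosen after seeing the data, 6.71% were called lower and 3.36% higher. At an unadjusted p under 0.05, 28 members were lower and 0 higher, or 38.9% and 0%, beside 14.8% of all genes lower and 7.02% higher.

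Most members that were not called also had values below 0. The average change was below 0 for 64 of the 72 members, or 88.9%, beside 55.2% of all genes tested. Its median was -0.062 over the members and -0.01 over all genes tested. The change was below 0 in every one of the 5 lines for 24 members, or 33.3%, against 8.81% of all genes tested. These include the 8 called genes and 16 others, NDUFA2, NDUFB1, NDUFB2, NDUFB5, NDUFB9, NDUFB10, NDUFS3, NDUFS6, NDUFV3, CYC1, UQCR11, COX5B, COX8A, ATP5MG, ATP5PB and ATP5PD. For 63 of the 64 members not called, the 95% interval of the average change lay within 0.25 of 0 in both directions, and the exception was NDUFA10, whose upper bound was 0.31. In bulk RNA, fewer cells of a kind and less RNA per cell cannot be told apart.

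The count of 8 depended on the fit. With the actin difference as a covariate, 3 of the 8 stayed called (NDUFA3, NDUFB8 and UQCRQ) and the median over the members was -0.023. The size of that adjustment is set by differences within groups, the largest of which was 3.16 against 2.05 on the T-ALL1 controls. The next largest was 0.74 against 1.14 on the KOPT-K controls, so the adjustment rests mainly on 1 pair of arrays. The count was 4 without DND41 and 4 without HPB-ALL. It was 5 without CEM and 6 without T-ALL1 (NDUFA7 and NDUFB7 lost their call), and the median was -0.044 without T-ALL1. Among fits without 1 array it was 24 without T-ALL1 control 2, where 11.7% of all genes were called lower, and 5 without CEM NBD 1, DND41 control 1, HPB-ALL NBD 1, HPB-ALL control 2 or KOPT-K NBD 2. Without T-ALL1 control 1 the called genes were the same as with all arrays. The median over the members was then -0.048, against -0.071 without T-ALL1 control 2. When the 5 lines themselves served as the replicates, no gene of the array was called, and the lowest adjusted p among the members was 0.166. In that fit 13 members were lower and 0 higher at an unadjusted p under 0.05, all 8 among them, beside 8.39% of all genes lower and 3.5% higher.

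**Figure D1:**
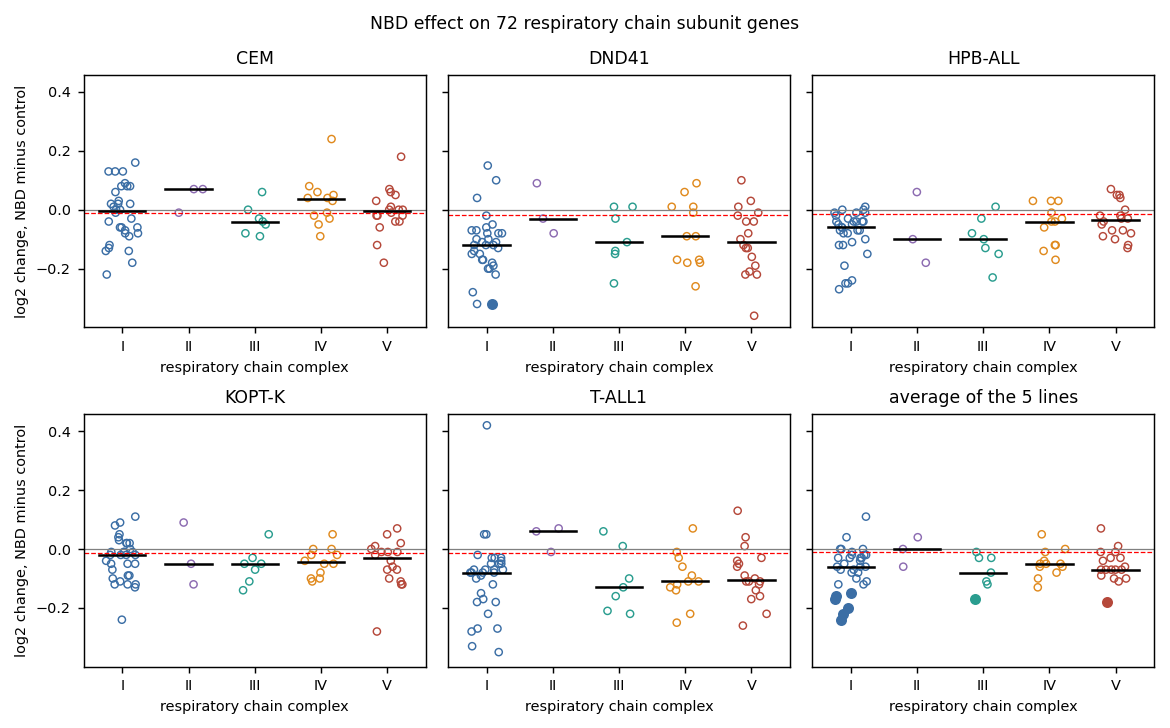
Change in log2 intensity (NBD minus control, vertical axis) of the 72 tested subunit genes by complex (horizontal axis), in each line and on average. Each circle is 1 gene, filled where limma called it at an adjusted p under 0.05, the black bar is the median of the complex and the dashed red line the median of all genes tested. The filled circles are the 8 genes called on average, 6 of them in complex I, and NDUFB8 in DND41.

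Complex I, the NADH dehydrogenase, held 6 of the 8 called genes: 6 of its 32 members fell, none rose, and the median change was -0.063. The share lower was 18.8%, beside 6.14% of all genes. At an unadjusted limma p under 0.05, 13 were lower and 0 higher (40.6% lower, beside 14.8% of all genes). All 6 encode accessory subunits, which surround the catalytic core and are needed for its assembly or stability. Of 27 accessory genes tested 6 were called and 25 were below 0, while none of the 5 core genes measured was called (median -0.065, with 4 of 5 below 0). The core genes are NDUFS1, NDUFS3, NDUFS7, NDUFV1 and NDUFV2, which carry the flavin, the iron-sulphur clusters or the fold around them. Their changes were 0.04, -0.07, -0.10, -0.02 and -0.08 in that order, so core and accessory genes had close to the same median and differed in the count of calls, a difference that was not tested. This split was made after the values were seen.

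NDUFA3, a small subunit of the membrane arm, had the largest average fall. Its log2 intensity was 11.34 and 11.39 on the NBD arrays of CEM against 11.45 and 11.40 on the controls, 11.37 and 11.23 with NBD in DND41 against 11.66 and 11.58 in controls, and 11.06 and 11.16 with NBD in HPB-ALL against 11.39 and 11.32 in controls. In KOPT-K it was 11.62 and 11.42 with NBD against 11.67 and 11.85 in controls, and in T-ALL1 it was 11.47 and 11.55 with NBD against 11.97 and 11.76 in controls. Both NBD arrays lay below both control arrays in all 5 lines, with the narrowest gap in CEM. The gene was picked for its fall on these arrays, so this order is only a description, here and for the other called genes. The average change was -0.24 with a standard error of 0.04 (limma adjusted p = 0.00337).

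NDUFA13, also known as GRIM-19, sits where the membrane arm meets the peripheral arm. It read 12.20 and 12.38 on CEM NBD arrays against 12.43 and 12.41 on controls, 12.00 and 11.83 with NBD in DND41 against 12.17 and 12.22 in controls, and 11.53 and 11.54 with NBD in HPB-ALL against 11.74 and 11.83 in controls. It read 12.43 and 12.23 with NBD in KOPT-K against 12.37 and 12.52 in controls, and 12.18 and 12.26 with NBD in T-ALL1 against 12.62 and 12.48 in controls. The groups overlapped in KOPT-K and were apart, with NBD lower, in the other lines. The average change was -0.22 with a standard error of 0.04 (limma adjusted p = 0.00483).

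NDUFA11 encodes a membrane arm subunit that lies at the contact with complex III in supercomplexes. It was 11.52 and 11.55 with NBD in CEM against 11.74 and 11.68 in controls, 11.30 and 11.09 with NBD in DND41 against 11.38 and 11.32 in controls, and 11.25 and 11.22 with NBD in HPB-ALL against 11.39 and 11.63 in controls. It was 11.68 and 11.60 with NBD in KOPT-K against 11.76 on both controls, and 11.32 and 11.45 with NBD in T-ALL1 against 11.77 and 11.53 in controls. NBD arrays were the lower ones in all 5 lines, with the narrowest gap in DND41. The average change was -0.20 with a standard error of 0.04 (limma adjusted p = 0.0143), and a second probe set of the gene also fell, by 0.31 (adjusted p = 0.00992).

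NDUFB8, a subunit of the distal membrane arm, was the only member called in a single line. In DND41 it read 11.35 and 11.22 with NBD against 11.62 and 11.59 in controls, a change of -0.32 (limma adjusted p = 0.0278), a call that was lost without DND41 NBD 2 (adjusted p = 0.268), control 1 (0.213) or control 2 (0.132). In CEM it read 11.98 and 11.88 with NBD against 11.99 and 12.02 in controls, in HPB-ALL 11.72 on both NBD arrays against 11.82 and 11.85 in controls, in KOPT-K 11.88 and 11.87 with NBD against 12.01 and 12.00 in controls, and in T-ALL1 11.44 and 11.47 with NBD against 11.70 and 11.55 in controls. No NBD array reached a control array of its own line. On average it fell by 0.16 with a standard error of 0.03 (adjusted p = 0.00549), and its other bright probe set changed by -0.15 (adjusted p = 0.0581).

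NDUFB7, a distal membrane arm subunit, and NDUFA7, a subunit of the peripheral arm near the quinone site, had average changes of -0.17 (limma adjusted p = 0.0321) and -0.15 (adjusted p = 0.0211). NDUFB7 ran between 9.48 and 10.32 on NBD arrays and between 9.58 and 10.68 on control arrays, and NDUFA7 between 10.24 and 11.57 on NBD arrays and between 10.49 and 11.76 on control arrays. The spread between lines was wider than the change, so the ranges overlap although both NBD arrays lay below both controls in 4 of 5 lines for each gene. The NDUFB7 call held in 8 of the 20 fits that left out 1 array (highest adjusted p = 0.0756), and the NDUFA7 call in 15 (highest 0.0551).

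**Figure D2:**
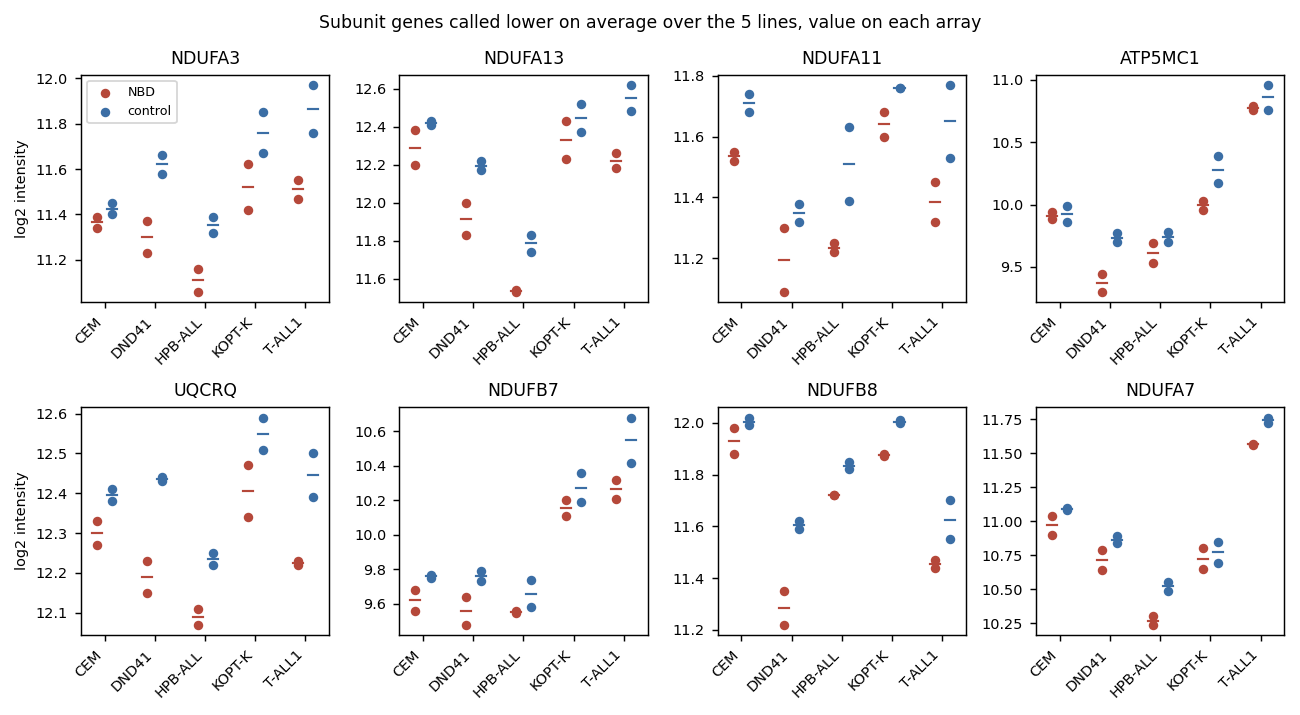
Log2 intensity (vertical axis) of the 8 genes called on average, on each of the 20 arrays, by line (horizontal axis), with NBD arrays in red to the left of control arrays in blue. Each point is 1 array and the short bar is the mean of 2. In 35 of the 40 combinations of gene and line both NBD arrays lie below both control arrays. The genes were picked for their fall on these same arrays, so this count is no separate support. Over all genes tested the share was between 23.6% (KOPT-K) and 29.1% (HPB-ALL) per line.

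The remaining genes of complex I stayed uncalled. NDUFA10 had the largest change of any member in the T-ALL1 line, 0.42 (limma adjusted p = 0.266), and it rests on 1 array: it read 10.24 on both NBD arrays against 9.32 and 10.33 on the controls. The low value is that of T-ALL1 control 1, the array with the largest actin difference. Without that array the change was -0.09 (adjusted p = 0.696), and without the other control it was 0.92 (adjusted p = 2.59e-05).

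Complex II, succinate dehydrogenase, also belongs to the citrate cycle and has no mitochondrially encoded subunit. None of its 3 genes measured was called by limma (0 lower and 0 higher at an unadjusted p under 0.05, beside the 14.8% and 7.02% of all genes), and their median change was 0.005. SDHA, the flavoprotein that oxidizes succinate, had lowest, median and highest values of 10.11, 10.54 and 10.91 on the 10 NBD arrays against 10.03, 10.45 and 11.02 on the 10 control arrays, a change of 0.04 (limma adjusted p = 0.546). SDHC and SDHD anchor the enzyme in the membrane. SDHC had 10.61, 10.81 and 11.55 with NBD against 10.58, 10.86 and 11.73 in controls, and SDHD had 11.39, 11.69 and 12.04 with NBD against 11.35, 11.72 and 12.08 in controls. The groups overlapped over nearly their whole range, with changes of -0.06 for SDHC and 0.00 for SDHD.

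Complex III, the cytochrome bc1 complex, had 1 of 7 genes called lower (14.3%, beside 6.14% of all genes). At an unadjusted limma p under 0.05, 4 were lower and 0 higher (57.1% lower, beside 14.8% of all genes). All 7 average changes were below 0 (median -0.082). The called gene was UQCRQ, a small subunit bound to the cytochrome b core. It read 12.27 and 12.33 on CEM NBD arrays against 12.41 and 12.38 on controls, 12.23 and 12.15 with NBD in DND41 against 12.43 and 12.44 in controls, and 12.07 and 12.11 with NBD in HPB-ALL against 12.25 and 12.22 in controls. In KOPT-K it read 12.47 and 12.34 with NBD against 12.51 and 12.59 in controls, and in T-ALL1 12.23 and 12.22 with NBD against 12.50 and 12.39 in controls. NBD and control arrays did not overlap within any of the 5 lines. Its average change was -0.17 with a standard error of 0.03 (limma adjusted p = 0.00337).

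CYC1 encodes cytochrome c1, the haem protein that hands electrons to cytochrome c. It had lowest, median and highest values of 10.63, 10.94 and 11.32 on NBD arrays against 10.85, 11.08 and 11.37 on control arrays, and a change of -0.11 that did not pass the test (limma adjusted p = 0.0918). UQCRC1, a core protein on the matrix side, changed by -0.01 (adjusted p = 0.956) and UQCR10 by -0.08 (adjusted p = 0.131).

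Complex IV, cytochrome c oxidase, had no gene called by limma among 12 tested, with 2 lower and 0 higher at an unadjusted p under 0.05 (16.7% lower, beside 14.8% of all genes), a median of -0.053 and 11 of 12 changes below 0. COX5B, a zinc-binding subunit, had the most negative change, -0.13 (limma adjusted p = 0.0574), and COX7C had -0.05 (adjusted p = 0.322). Several subunits of this complex exist as a general form and a tissue-restricted form, the restricted one found mainly in heart, muscle, lung or testis. The restricted forms COX6A2, COX6B2, COX7A1, COX7B2 and COX8C did not pass the filter, with means of 4.14, 4.26, 3.99, 3.43 and 3.01. COX4I2, which replaces COX4I1 mainly in lung, passed narrowly, with lowest, median and highest values of 5.13, 5.44 and 5.81 on NBD arrays against 5.19, 5.40 and 5.72 on control arrays. Its change of 0.24 was the largest in CEM and was not called, and its average change was 0.05 (adjusted p = 0.738). The general forms stood far above the filter on every array: the lowest single value was 12.81 for COX4I1, 12.98 for COX6A1, 11.39 for COX6B1, 12.34 for COX7A2, 12.67 for COX7B and 12.78 for COX8A.

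**Figure D3:**
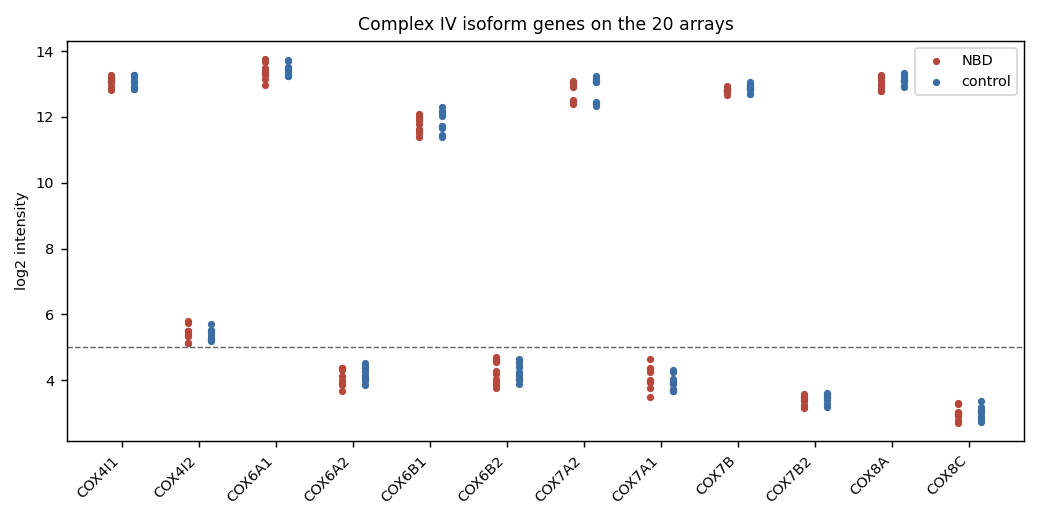
Log2 intensity (vertical axis) of general and tissue-restricted complex IV genes (horizontal axis, each general form followed by its restricted one), with the 10 NBD arrays in red to the left of the 10 control arrays in blue. The dashed line is the filter value of 5.0. Every restricted form but COX4I2 has its mean below it, and the general forms lie above 11 on all arrays.

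Complex V, the ATP synthase, had 1 of 18 genes called lower and none higher, with a median of -0.066. The share lower, 5.56%, was no higher than the 6.14% of all genes called lower. At an unadjusted limma p under 0.05, 9 of the 18 were lower and 0 higher (50% lower, beside 14.8% of all genes). The called gene was ATP5MC1, which encodes a copy of the c subunit that forms the proton-driven ring. It read 9.88 and 9.94 on CEM NBD arrays against 9.99 and 9.86 on controls, 9.44 and 9.30 with NBD in DND41 against 9.77 and 9.70 in controls, and 9.53 and 9.69 with NBD in HPB-ALL against 9.70 and 9.78 in controls. It read 10.03 and 9.96 with NBD in KOPT-K against 10.39 and 10.17 in controls, and 10.79 and 10.76 with NBD in T-ALL1 against 10.96 and 10.76 in controls. The arrays were apart in DND41, HPB-ALL and KOPT-K, and touched or overlapped in CEM and T-ALL1. The average change was -0.18 with a standard error of 0.04 (limma adjusted p = 0.0216), kept in 15 of the 20 fits without 1 array (highest adjusted p = 0.0563).

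The other genes of the same ring protein, ATP5MC2 and ATP5MC3, changed by -0.03 and -0.07 and were not called (limma adjusted p = 0.539 and 0.161). ATP5F1A and ATP5F1B, the catalytic head, changed by -0.01 and 0.01. ATP5IF1, the inhibitor that binds the head when the membrane potential is lost and is matched by its symbol although it is no subunit, had lowest, median and highest values of 10.20, 10.55 and 10.92 with NBD against 10.22, 10.74 and 11.14 in controls (change -0.10, adjusted p = 0.114). ATP5MG, of the membrane part, changed by -0.04 (adjusted p = 0.42). ATP5MF was read by a dim probe set with a mean of 5.17, and its bright probe set, at 12.8, also matches ARMC2-AS1 and changed by -0.10 (adjusted p = 0.271).

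Line by line, the median over the members differed in size, and that difference was not tested over the set. In CEM the median change over the 72 members was -0.005, with 0 called (0.74% of all genes were called lower and 0.392% higher). In DND41 it was -0.111, with NDUFB8 alone called (1.74% of all genes lower, 0.733% higher). In HPB-ALL it was -0.051 and in KOPT-K -0.039, each with 0 called (0.646% of all genes lower and 0.138% higher in HPB-ALL, and 0.384% lower and 0.892% higher in KOPT-K). In T-ALL1 it was -0.086, also with 0 called (2.3% of all genes lower, 1.15% higher). At an unadjusted p under 0.05, 21 members were lower and 1 higher in DND41 (29.2% lower, beside 8.9% of all genes lower and 5.8% higher). In T-ALL1 there were 16 lower and 0 higher (22.2% lower, beside 12.6% and 8.29% of all genes). HPB-ALL had 7 lower and 0 higher (9.72% lower, beside 7.82% and 2.62%), CEM 2 lower and 1 higher (2.78% lower, beside 8.45% and 4.98%) and KOPT-K 2 lower and 0 higher (2.78% lower, beside 5.92% and 5.91%). The shares in HPB-ALL, CEM and KOPT-K were thus close to or below those of all genes.

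A B cell marker also fell in DND41. CD79A, a chain of the B cell receptor, read 10.22 and 10.12 on DND41 NBD arrays against 11.45 and 11.46 on the controls, a change of -1.28 (limma adjusted p = 0.00538), and was at most 6.71 on the arrays of the other lines. It was 1 of 3 B cell markers called lower in DND41, beside PAX5 (-0.26) and CD22 (0.00), which were not called, and MS4A1 did not pass the filter. Its part in the DND41 values was not tested.

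Counting arrays in place of tests, both NBD arrays lay below both control arrays for 43 members in DND41 (59.7%, beside 27.8% of all genes), 40 in HPB-ALL (55.6%, beside 29.1%) and 39 in T-ALL1 (54.2%, beside 24.0%). In CEM and KOPT-K the counts were 21 (29.2%, beside 28.2%) and 20 (27.8%, beside 23.6%), near those of all genes. The reverse order, both NBD arrays above both controls, was found for 18 members in CEM, 5 in DND41, 4 in HPB-ALL, 7 in KOPT-K and 4 in T-ALL1 (21.0%, 21.6%, 20.7%, 18.9% and 18.7% of all genes in the same order of lines). Among genes with a mean log2 level of at least 10, NBD arrays were the lower ones for 41.7% in DND41, 32.5% in HPB-ALL, 26.6% in T-ALL1, 26.4% in CEM and 20.4% in KOPT-K, and the higher ones for 23.8%, 23.0%, 20.9%, 31.6% and 24.5% in that order of lines. In HPB-ALL the largest change of a member was -0.27 for NDUFA11, and in KOPT-K it was -0.28 for ATP5MC1, neither called.

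The T-ALL1 result depended on which control array was used. The mean actin difference was lower with NBD by 1.58 in that line, and the NBD minus control value was 0.32 in CEM, -0.15 in DND41, -0.06 in HPB-ALL and -0.09 in KOPT-K. Without T-ALL1 control 2, 20 members were called lower and 2 higher in T-ALL1, with a median of -0.149, and 13.9% of all genes were called lower. Without T-ALL1 control 1 the median was -0.038 and 0 members were called. Both T-ALL1 NBD arrays lay below control 1 for 59 members (81.9%, beside 48.3% of all genes) and below control 2 for 44 (61.1%, beside 37.4%). With the actin difference as a covariate, a fit chosen for single lines after seeing the data, the direction of the T-ALL1 median turned: it was 0.089 over the members, 15 of 72 were below 0 and 0 were called, while the median over all genes was 0.051. NDUFA3 then changed by 0.06 in T-ALL1 (adjusted p = 0.906), against -0.35 without the covariate. NDUFA10 changed by -0.73 there, against 0.42 without the covariate. This adjustment rests mainly on the 2 T-ALL1 controls and carries their difference over to the wider gap between NBD and control. In the same fit the median was -0.032 in CEM, -0.092 in DND41 (3 called lower, beside 2.62% of all genes), -0.043 in HPB-ALL and -0.031 in KOPT-K. The actin difference separates NBD from control arrays in T-ALL1, so the peptide and RNA quality cannot be fully told apart in that line. The same holds, with smaller gaps, in DND41 and CEM. In DND41 the difference was 1.32 and 1.21 with NBD against 1.46 and 1.38 in controls. In CEM the order was reversed, with 1.71 and 1.81 against 1.44 and 1.45.

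No member had an NBD effect that differed between lines by the moderated F-test of limma (lowest adjusted p = 0.27), while 252 genes of the array did (1.83%). At an unadjusted p under 0.05 there were 2 members, beside 16.8% of all genes. The members with the lowest p were COX7B, a small complex IV subunit, NDUFB3 and NDUFS1 of complex I, and ATP5F1D and ATP5MC3 of complex V. COX7B changed by 0.08 in CEM and by -0.26 in DND41, where it read 12.76 and 12.67 with NBD against 12.97 and 12.98 in controls. NDUFB3 changed by 0.13 in CEM and -0.19 in DND41, and NDUFS1 by 0.16 and -0.10. ATP5F1D changed by -0.26 in T-ALL1, -0.18 in CEM, -0.10 in HPB-ALL, -0.04 in DND41 and 0.05 in KOPT-K, and ATP5MC3 by 0.05 in CEM and -0.21 in DND41.

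A chromosomal pattern was noticed after the values were seen and is given as a description. NDUFA3, NDUFA7, NDUFA11, NDUFA13 and NDUFB7, 5 of the 8 called genes, lie on chromosome 19, at separate places. Of 9 tested members on that chromosome 5 were called (55.6%) and all 9 average changes were below 0, with a median of -0.149. On the other chromosomes 3 of 63 members were called (4.76%, beside 6.14% of all genes), with a median of -0.051. Over all 1045 genes of chromosome 19 tested, at any level, 63 were called lower (6.03%), with a median of -0.012. Genes of that chromosome at the level of the members were not compared, and a cause was not tested.

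The promoters of the called genes are shown because these genes moved the same way. RefSeq windows of build GRCh38.p14, running from 250 bases before the transcription start to 50 bases after it, were found for 65 of the 77 members and for all 8 called genes. NDUFB5, NDUFB9, SDHC, CYC1, UQCRB, COX4I2, COX6C, COX7A1, ATP5F1B, ATP5F1D, ATP5MC3 and ATP5MF had no window. The 250 bases before the start are printed for UQCRQ (chr5:132866392-132866641, plus strand), NDUFA13 (chr19:19515975-19516224, plus strand), NDUFB7 (chr19:14572067-14572316, minus strand) and NDUFA11 (chr19:5903791-5904040, minus strand). Capitals mark the letters of the ETS/GABP motif in UQCRQ, NDUFA13 and NDUFB7, and of the E-box in NDUFA11.
UQCRQ: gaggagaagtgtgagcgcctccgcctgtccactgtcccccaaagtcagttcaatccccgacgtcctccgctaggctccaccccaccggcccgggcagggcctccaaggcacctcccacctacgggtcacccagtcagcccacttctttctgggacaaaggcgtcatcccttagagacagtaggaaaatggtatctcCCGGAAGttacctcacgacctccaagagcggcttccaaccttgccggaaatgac
NDUFA13: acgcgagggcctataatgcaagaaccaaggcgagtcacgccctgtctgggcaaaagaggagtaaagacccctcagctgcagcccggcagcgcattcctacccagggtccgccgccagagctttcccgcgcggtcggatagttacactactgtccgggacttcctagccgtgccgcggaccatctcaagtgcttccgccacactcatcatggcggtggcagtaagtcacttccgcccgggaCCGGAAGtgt
NDUFB7: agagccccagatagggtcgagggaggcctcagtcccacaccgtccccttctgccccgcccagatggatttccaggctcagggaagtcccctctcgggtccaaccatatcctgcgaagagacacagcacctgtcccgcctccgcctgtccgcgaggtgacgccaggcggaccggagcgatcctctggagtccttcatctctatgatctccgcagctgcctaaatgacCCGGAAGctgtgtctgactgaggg
NDUFA11: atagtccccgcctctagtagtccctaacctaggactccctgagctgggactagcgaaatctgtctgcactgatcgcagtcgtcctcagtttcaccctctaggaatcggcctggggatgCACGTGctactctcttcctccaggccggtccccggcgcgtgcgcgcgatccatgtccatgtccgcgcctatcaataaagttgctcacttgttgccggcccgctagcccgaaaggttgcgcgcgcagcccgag

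The other called genes are shown by the 30 bases around a match, which in each of them lies after the transcription start. Not printed are a YY1 match 191 bases before the start of NDUFA3 and an E-box 120 bases before that of NDUFA7. Capitals mark YY1 letters in NDUFA3 (chr19:54102865-54102894, plus strand) and NDUFA7 (chr19:8321343-8321372, minus strand), NRF1 letters in NDUFB8 (chr10:100529874-100529903, minus strand) and the E-box in ATP5MC1 (chr17:48892780-48892809, plus strand).
NDUFA3: ccgcggagacaAAGATGGctgcgagtaagt
NDUFA7: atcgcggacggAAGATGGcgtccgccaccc
NDUFB8: gccgtgacaggcctttGCGCATGtgcagaa
ATP5MC1: aaggtccaggaCACGTGggtgggggaagct

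4 motifs were searched on both strands over the 300 bases: CATGCGC for NRF1 and CCGGAAG for ETS factors such as GABP, both known activators of respiratory chain genes, AAGATGG for YY1, and CACGTG, the E-box that MYC and related factors bind. The last 3 letters of CCGGAAG are the first 3 of AAGATGG, so matches to both can overlap. NRF1 letters were in 13 member promoters (20.0%, beside 4.67% of 27305 gene promoters), ETS/GABP letters in 18 (27.7%, beside 10.7%), YY1 letters in 15 (23.1%, beside 6.06%) and the E-box in 7 (10.8%, beside 7.43%). At least 1 of the first 3 was found in 36 members (55.4%, beside 19.3%) and in 6 of the 8 called genes. A match is a run of letters and not a measured binding site. The E-box was found in ATP5MC1, NDUFA7 and NDUFA11 among the called genes.

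Genes that act with the respiratory chain were counted the same way, from lists set by function and chosen with earlier results of these data known. Assembly factors, which build the complexes but are not part of them, had 16 of 53 genes called lower and 0 higher, with a median of -0.045. NDUFAF3, an assembly factor of complex I, changed by -0.38 (limma adjusted p = 0.000253), COA3 of complex IV by -0.32 (adjusted p = 0.000792) and DMAC2L, linked to ATP synthase, by -0.31 (adjusted p = 0.00159). Mitochondrial ribosomal proteins, which translate the subunits encoded in mitochondrial DNA, had 15 of 75 called lower and 0 higher, with a median of -0.062. MRPL24, MRPL40 and MRPL12 each changed by -0.23 (adjusted p = 0.00226, 0.000469 and 0.00393). Assembly factors and mitochondrial ribosomal proteins thus had calls in 1 direction, as the subunits did, beside the 6.14% of all genes called lower.

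Electron carriers and entry points, the proteins that feed electrons into the chain, had 2 of 21 called lower (9.52%, beside 6.14% of all genes). These were DHODH of pyrimidine synthesis (-0.23, limma adjusted p = 0.0139) and ETFB of fatty acid oxidation (-0.17, adjusted p = 0.00594). CYCS, cytochrome c itself, changed by 0.04 (adjusted p = 0.464). The citrate cycle had 0 of 11 called by limma, 1 lower and 0 higher at an unadjusted p under 0.05 (9.09% lower, beside 14.8% of all genes), and a median of -0.01. Of 18 regulators tested, MYC fell by 0.50 (adjusted p = 0.0053) and GABPB1, the partner of GABPA, rose by 0.17 (adjusted p = 0.0312), while NRF1 (0.07), GABPA (0.04) and YY1 (-0.01) were not called. The 1 call lower is 5.56% of the regulators, beside 6.14% of all genes lower and 2.24% higher. PPARGC1A did not pass the filter. T lineage markers had 4 of 10 called lower (40.0%, beside 6.14% of all genes). They were CD3D (-0.45), CD1B (-0.31), CD7 (-0.29) and LCK (-0.25), so genes outside mitochondria moved in the same samples.

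**Figure D4:**
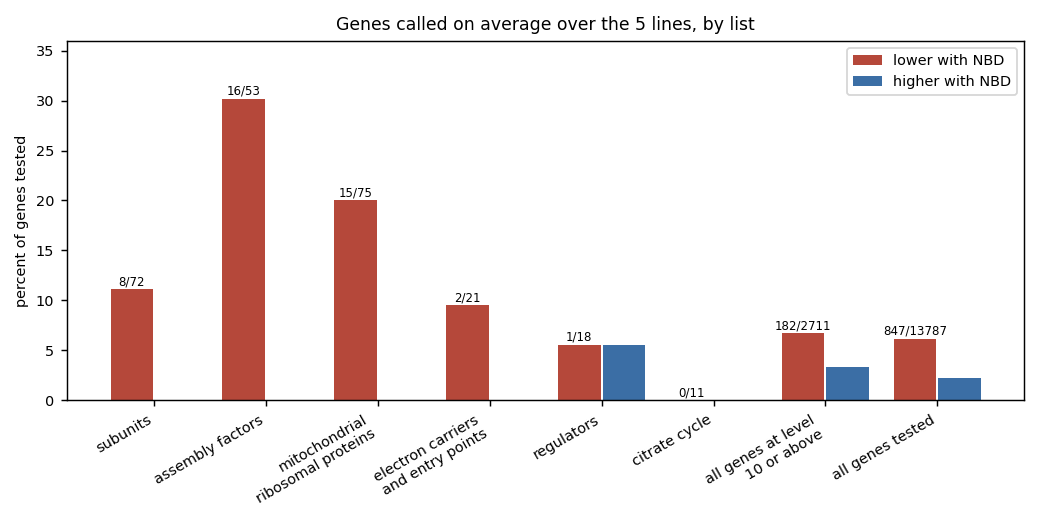
Percent of the genes tested in each list (vertical axis) that limma called lower with NBD (red, left bar) or higher with NBD (blue, right bar) on average over the 5 lines, with the count called lower over the number tested above the red bar. Subunits stand at 8 of 72, assembly factors at 16 of 53, mitochondrial ribosomal proteins at 15 of 75 and all genes tested at 847 of 13787.

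Differences between lines were larger than the NBD effect for some members. Levels in the control arrays are given as a description, because T-ALL1 and KOPT-K appear to have been normalized apart from CEM, DND41 and HPB-ALL. The range over the 5 control means had a median of 0.54 over the members and 0.88 over all genes tested, and it was over 1 for 11 members (15.3%, beside 42.4% of all genes). Among all genes with a mean log2 level of at least 10 the median range was 0.73, and 27.4% were over 1. NDUFB10, a distal membrane arm subunit of complex I, was at 9.91 in HPB-ALL controls and between 10.69 and 11.72 in the other lines. Its second probe set gave the same order at the low end, 9.10 in HPB-ALL and 9.78 to 10.32 in the others. NDUFS7, which carries an iron-sulphur cluster next to the quinone site, was at 8.97 in HPB-ALL controls, against 10.45 to 10.74 in the other lines. Its second probe set, dim at a mean of 5.47, was not low there, at 5.46 against 5.26 to 5.72 in the others. By the probe sets used, HPB-ALL was thus the low line for both genes on all 4 of its arrays.

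NDUFV3, of the NADH-oxidizing module, was lowest in KOPT-K controls, at 8.10, against 8.97 to 9.51 elsewhere, and its second probe set was instead lowest in HPB-ALL, at 6.73. ATP5F1A was at 12.53 in DND41 controls, against 13.30 in CEM and 13.54 in HPB-ALL, which come from the same apparent normalization. ATP5PF and ATP5PO, stalk subunits that both lie on chromosome 21, were at 13.56 and 13.80 in T-ALL1 controls, against 12.70 and 12.98 in KOPT-K controls. The second bright ATP5PO probe set gave 10.83 in T-ALL1 and 10.54 in KOPT-K. T-ALL1 was the highest line for 38 of the 72 members by its control mean, for 45 by control 1 alone and 31 by control 2 alone, and for 33 by the NBD means of all lines.

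**Figure D5:**
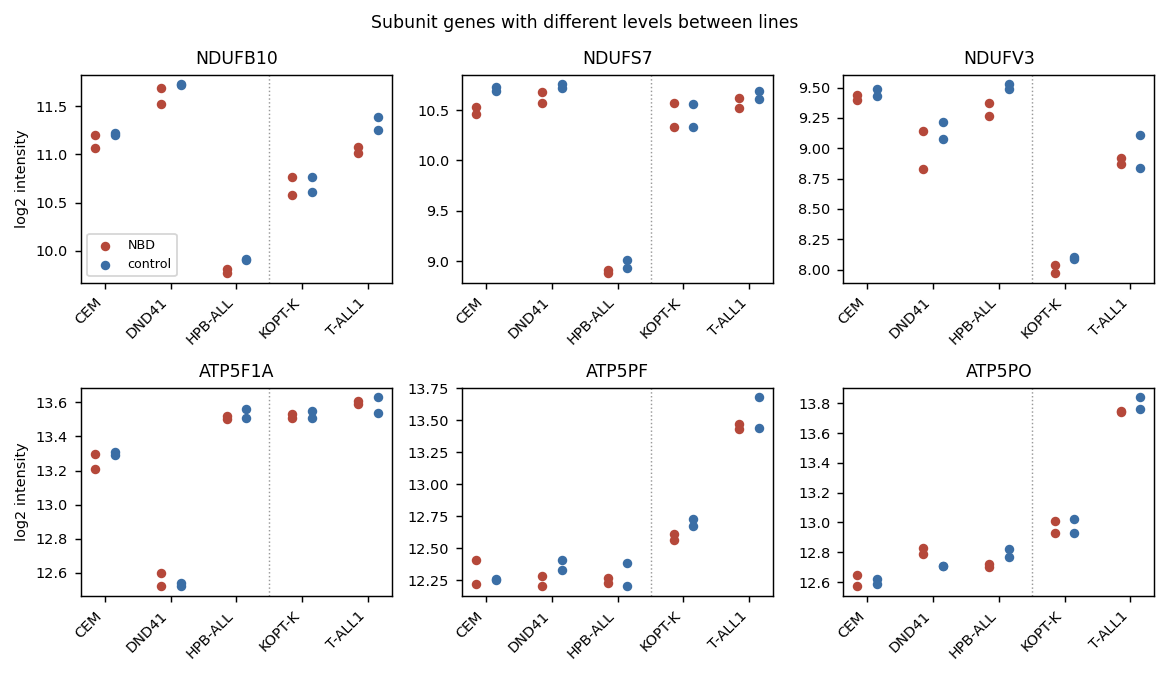
Log2 intensity (vertical axis) of 6 subunit genes with different control levels between lines (horizontal axis), with NBD arrays in red to the left of control arrays in blue, each point 1 array. The dotted line parts the lines that appear to have been normalized in separate runs. HPB-ALL lies low for NDUFB10 and NDUFS7, KOPT-K for NDUFV3 and DND41 for ATP5F1A, on NBD and control arrays alike.

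Further probe sets give a second reading of some members. 44 members have more than 1 single-gene probe set, with 74 further ones, of which 58 had a mean above the filter value. Of those 58, 41 changes were below 0. limma called 2 of them lower, in NDUFA11 and UQCR10 (-0.29, adjusted p = 0.0253), and 1 of them higher, in NDUFS1 (0.22, adjusted p = 0.0329). The NDUFS1 probe set used for the gene changed by 0.04, so its probe sets disagree. Among the probe sets used, 7 carry the array maker's mark for possible matches to unrelated transcripts and 35 the mark for several transcripts, so near-identical copies and pseudogenes may add signal there.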

How the data were processed

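Expression was measured on 20 Affymetrix U133 Plus 2.0 arrays. The deposited table holds 1 linear intensity for each of 54675 probe sets and each array, which the authors made with RMA (robust multi-array average) per the submitters' processing notes, whose version is not given in the sources used here. The log2 scale was taken here from the deposited intensities, with no offset. The columns of KOPT-K and T-ALL1 carry up to 7 decimals and the others 2, so the authors appear to have normalized in 2 runs, and every NBD minus control difference lies within 1 of them. Arrays have no read depth, so their number limits precision.

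Of the probe sets, 41097 had 1 gene symbol, 1801 several and 11777 none, by the platform annotation, and 41043 of the first matched a RefSeq gene symbol. The brightest single-gene probe set stood for each of 19775 genes, and genes at the median of all values (intensity 31.96) on at least 2 arrays were tested. NDUFC2, NDUFS5, NDUFS8 and UQCRH have only shared probe sets and are no members here. Some genes of the lists are not analysed here.

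Differences were estimated by lmFit and eBayes of limma 3.58.1 (R 4.3.3), with 1 mean for each of 10 groups, a spread shared over all arrays (10 residual and 3.42 prior degrees of freedom) and Benjamini-Hochberg adjustment over 13787 genes at 0.05. The contrasts were NBD minus control in each line, their equal-weight mean, and an F-test between lines. A fit on group means with line as a block took lines as replicates. On simulated data with 13787 genes, of which 200 were changed, the average recovered 97% of changes of 0.5 on the log2 scale and 100% of changes of 1, with 10 unchanged genes called. The single lines recovered 57 to 62% and 93 to 96%, so changes of the size reported here are below what 1 line can show reliably. No change smaller than 0.5 was planted, so recovery of average changes as small as those reported here was not tested.

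Named genes were, by rule, SDH genes, CYC1 and ATP5IF1, the largest called change in each line (or the largest change where none was called), the 3 largest on average, the 5 with the lowest F-test p, the highest and lowest probe set of each complex, the complex IV isoform pairs, and the 3 largest called in each further list. All called members are named as well. The core and accessory split, the chromosome 19 genes and the genes picked for line levels were chosen after their values were seen. The members and lists were chosen with earlier results of these data known. Alternatives tried were the filter, normalization, probe set choice, offset, prior, replicate block, actin covariate (for single lines added after seeing the data), and leaving out each array or line.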

Additional observations from a re-analysis of the deposited data

How the results depend on the processing

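No called value changed its sign under the alternatives run. The T-ALL1 median over the members, -0.086, turned to 0.089 with the actin covariate, a fit added for single lines after seeing the data. The count of subunit genes lower on average, 8, was 7 without the filter, 8 after quantile normalization, 9 after centring arrays on their median, 7 with the mean of all probe sets and 11 with an offset of 16. It was 22 with a trended robust prior (7.45% of all genes lower), 3 with the actin covariate (3.6% of all genes lower), 5 without CEM, 4 without DND41, 4 without HPB-ALL, 7 without KOPT-K, 6 without T-ALL1, 5 in CEM, DND41 and HPB-ALL alone and 0 in the pair KOPT-K and T-ALL1 alone (0.058% of all genes lower). Leaving out each array in turn gave 5 to 24 lower and 0 to 1 higher. The 24 (11.7% of all genes lower) and the 1 higher, NDUFA10, came without T-ALL1 control 2, and counts of 5 came without CEM NBD 1, DND41 control 1, HPB-ALL NBD 1, HPB-ALL control 2 or KOPT-K NBD 2. NDUFA3, NDUFA13, NDUFA11, NDUFB8 and UQCRQ kept their call in all 20 such fits.

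In DND41 the 1 lower gene became 0 without the filter, with the mean of all probe sets or in a fit of that line alone, 2 with an offset of 16, 12 with a trended robust prior, 3 with the actin covariate and 0 to 5 when single arrays were left out. In T-ALL1 the 0 lower genes became 1 after quantile normalization, 2 with the mean of all probe sets, 1 with an offset of 16, 8 with a trended robust prior, and 0 to 20 lower and 0 to 2 higher without single arrays. With lines as replicates a trended robust prior called 3 lower. The F-test called 1 member with the mean of all probe sets, 1 with a trended robust prior and 0 to 1 without single arrays. The causes were not tested, apart from the fewer arrays or genes that some alternatives use.

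Replicate numbers did not pair the arrays: deviations of same-numbered NBD and control arrays correlated at -0.05 in CEM, 0.14 in DND41, -0.10 in HPB-ALL, -0.18 in KOPT-K and -0.28 in T-ALL1, over genes. With the replicate block 1 member, NDUFA3, was called lower on average (2.35% of all genes lower) and 0 in DND41.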
